A study of Mus musculus with 13 samples.

Results

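The mitochondrial carriers of the Slc25 family are proteins of the inner mitochondrial membrane that exchange nucleotides, phosphate, amino acids, carboxylates, cofactors and iron between the cytosol and the matrix. Their transcripts were taken as every row of the normalized count table whose symbol begins with Slc25a, with 1 row of the 47 set aside, which left 46 genes of 21868. Of these, 38 had a mean of at least 10 normalized counts over the 13 mice and were among the 12303 genes tested. The other 8 (Slc25a2, Slc25a18, Slc25a21, Slc25a31, Slc25a41, Slc25a43, Slc25a48 and Slc25a54) did not exceed 5.54 normalized counts in any mouse, and Slc25a54 had no read in any of them. A normalized count is the number of reads on a gene divided by a scaling factor of its library, so that mice can be compared.

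RNA came from whole gastrocnemius, a calf muscle of mixed fibre type, of male C57BL/6 mice (C57BL/6N in the study's legends for the sequencing). The mice entered at 7 weeks of age, acclimatized for 1 week, ate a diet with 60 kcal% fat for 15 to 17 weeks and were then all returned to chow, so that every group, controls included, had diet-induced obesity followed by a change of diet. For 3 weeks, 5 vehicle-treated mice (mice 1 to 5) received phosphate-buffered saline, 5 semaglutide-treated mice (mice 13 to 17) received the GLP-1 receptor agonist semaglutide at 30 nM/kg/day intraperitoneally, and 3 semaglutide + ketone ester–treated mice (mice 19, 21 and 22) received the same semaglutide and a ketone ester, a dietary source of β-hydroxybutyrate, at 0.114 g/mL in the drinking water. No group received ketone ester alone, so that its values without semaglutide were not analysed here. By their sample labels, vehicle-treated and semaglutide-treated mice were also given a placebo, which the methods of the study do not describe. The comparisons ask how semaglutide changed the transcripts of obese muscle and whether the ketone ester given with it altered that change.

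Between 15319471 and 23498162 reads were counted on genes per mouse, and the 6 skeletal muscle markers (Acta1, Ckm, Myh4, Myh1, Tnnt3 and Mb) were abundant in every mouse. Their summed normalized counts ranged from 2234750 to 2714690 in vehicle-treated mice, from 1377580 to 2449910 with semaglutide and from 2839070 to 3345230 with semaglutide + ketone ester. Semaglutide mouse 13 stood apart from its group in several carriers below, and it had the lowest of the weights that limma assigned to the libraries, 0.232, followed by semaglutide mouse 16 at 0.389, with all other mice between 0.687 and 1.61. Counts of carriers are therefore also given without mouse 13. That mouse was singled out after its values were seen. Fits without it, or with weights that lower it, are therefore no separate support for a carrier. In RNA from a whole muscle, fewer cells or mitochondria-rich fibres and less RNA per cell cannot be told apart.

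Carriers set which metabolites cross into the mitochondrion. In muscle, the ADP/ATP carrier returns ATP to the contractile apparatus, the phosphate carrier brings in the phosphate for ATP synthesis, and the malate-aspartate shuttle passes the reducing equivalents of cytosolic NADH to the respiratory chain. Other members feed matrix pathways with coenzyme A, S-adenosylmethionine, NAD+, nucleotides, glutathione and iron, the last for haem and iron-sulfur clusters.

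Per length of exon, the family was dominated by Slc25a4, the muscle ADP/ATP carrier. In vehicle-treated mice it stood at 28883 ± 929 normalized counts per kb of exon (SD, n = 5), which was 65.3% of the family's sum per kb. Slc25a3, the phosphate carrier, followed at 7212 ± 405 per kb (16.3%), then Slc25a11, the 2-oxoglutarate/malate carrier, at 2478 ± 180 per kb and Slc25a12, the aspartate/glutamate carrier of muscle, at 1247 ± 27.5 per kb. Each of these 4 levels lay clear of the next in every vehicle-treated mouse. Slc25a39 (473 ± 37.4), Slc25a28 (413 ± 30.0) and Slc25a5 (357 ± 44.0 per kb) came next, and the vehicle-treated mice of each overlapped with those of the next in this order. From Slc25a32, at 49.9 per kb, downwards every neighbouring pair of carriers overlapped.

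**Figure D1:**
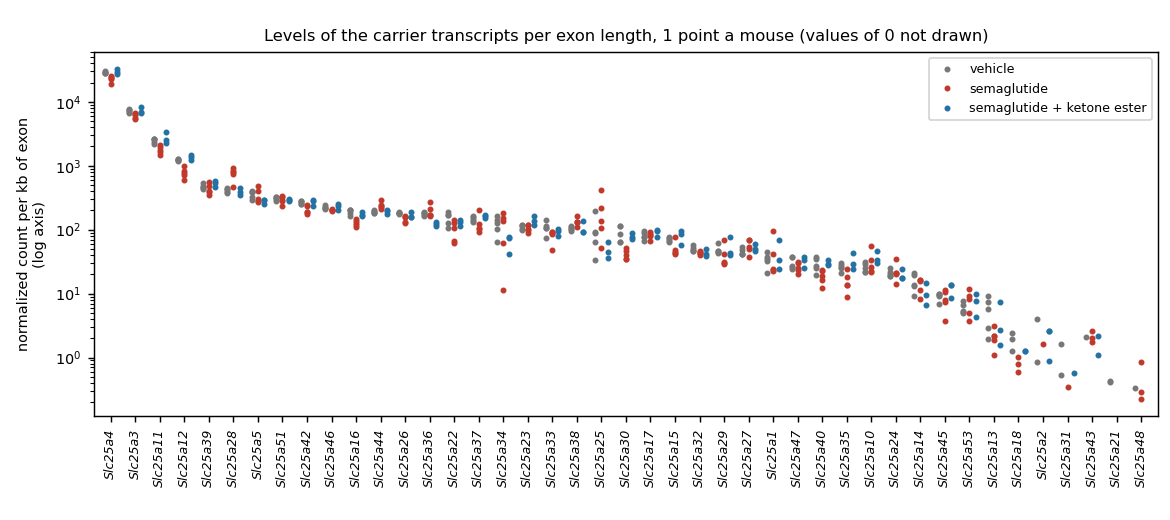
Normalized count per kb of exon on a log axis for the carriers in the order of their vehicle mean, with 1 point per mouse, grey for vehicle, red for semaglutide and blue for semaglutide + ketone ester, and values of 0 not drawn. Slc25a4 at 28883 and Slc25a3 at 7212 per kb in vehicle lie above all others, while the 8 carriers below the filter lie at the right or have no point.

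The family as a whole took up 0.488% ± 0.018 of all normalized counts in vehicle-treated mice (n = 5), 0.446% ± 0.017 in semaglutide-treated mice (n = 5) and 0.479% ± 0.037 in semaglutide + ketone ester–treated mice (n = 3), all as mean ± SD. In this share the vehicle-treated mice (0.464% to 0.508%) and the semaglutide-treated mice (0.433% to 0.471%) overlapped. The summed normalized count of the family was 91669 to 99161 in vehicle-treated mice and 64761 to 82478 in semaglutide-treated mice, ranges that did not meet, and 88474 to 107458 with the combination. Slc25a4 alone was 58.95% ± 0.754 of that sum with vehicle, 57.9% ± 1.22 with semaglutide and 59.3% ± 0.112 with semaglutide + ketone ester. Averaged over the 38 tested carriers, the log2 difference from the vehicle mean was below 0 in every semaglutide-treated mouse, from -0.29 to -0.11, and lay between -0.14 and 0.03 in semaglutide + ketone ester–treated mice and between -0.08 and 0.08 in vehicle-treated mice.

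Compared with vehicle, semaglutide lowered the transcripts of 10 carriers and raised those of 2, at an adjusted p under 0.05 in limma fitted over all 12303 genes on log2(normalized count + 1). The 10 that were lower were Slc25a4, Slc25a11, Slc25a12, Slc25a15, Slc25a16, Slc25a26, Slc25a30, Slc25a35, Slc25a40 and Slc25a42, and the 2 that were higher were Slc25a28 and Slc25a44. The 12 carriers were 31.6% of the 38 tested, beside 25.1% of all genes tested that passed the same threshold. The 10 lower carriers were 26.3% of the 38, beside 13.2% of all genes, and the 2 higher carriers were 5.26%, beside 11.9% of all genes. The median log2 difference over the 38 was -0.20, with 27 below 0 and 11 above, against a median of -0.0029 over all genes. Without semaglutide mouse 13, 16 carriers passed, 12 lower and 4 higher, and without vehicle mouse 4 only 7 passed, 5 lower and 2 higher. Shares of all genes in these fits are not given here, so the counts are not read as a result about the carriers. With sample weights, where mouse 13 had the lowest weight, 12 carriers were lower and 4 higher. Calls over all genes rose as well, from 1625 lower and 1459 higher to 2464 lower and 2383 higher of 12303.

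Compared with semaglutide alone, semaglutide + ketone ester–treated mice had higher transcripts of 8 carriers (Slc25a4, Slc25a11, Slc25a12, Slc25a15, Slc25a16, Slc25a30, Slc25a35 and Slc25a40) and lower transcripts of 3 (Slc25a28, Slc25a36 and Slc25a44). These 11 were 28.9% of the 38, beside 18.4% of all genes tested. The 8 higher carriers were 21.1%, beside 9.09% of all genes, and the 3 lower carriers 7.89%, beside 9.3%. The median log2 difference over the 38 was 0.27. Without mouse 13, 15 carriers passed, a count given without the share of all genes in that fit. The count of 11 rested in part on single mice of the small combination group. Without mouse 21 only Slc25a11 and Slc25a12 were higher and Slc25a28 and Slc25a36 lower. Without mouse 22 only Slc25a12, Slc25a16 and Slc25a30 were higher and Slc25a28 and Slc25a38 lower.

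The 5 semaglutide-treated mice enter both of these comparisons. The 10 carriers that passed in both had opposite signs in the 2 comparisons, a pattern to which those shared mice contribute, and the values of each comparison are therefore given side by side below. Against vehicle, semaglutide + ketone ester–treated mice had 0 carriers past the threshold in limma, beside 0.236% of all genes, and a median log2 difference of 0.02. Of the 38 carriers, 2 (Slc25a23 and Slc25a36) had an unadjusted limma p under 0.05 there, beside 1289 of the 12303 genes tested. That is a smaller share than over all genes. DESeq2 on the recovered reads and limma with sample weights each called 1, Slc25a36 as lower, and edgeR called 0. With 3 mice in the combination group this does not show that the 2 groups have equal levels, and the standard errors beside the differences give their precision.

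With each library rescaled to the same total, the median of all genes moved to a log2 difference of 0.17 for semaglutide against vehicle and -0.24 for semaglutide + ketone ester against semaglutide. On that scale 3 carriers were lower (Slc25a12, Slc25a16 and Slc25a30) and 3 higher (Slc25a28, Slc25a38 and Slc25a44) with semaglutide, with a median over the 38 of -0.03. Each of these was 7.89% of the 38, beside 7.55% of all genes lower and 26.5% higher on the same scale, so that the share of lower carriers was near that of all genes. Against semaglutide alone, the combination then had 4 higher (Slc25a11, Slc25a12, Slc25a30 and Slc25a35) and 6 lower (Slc25a25, Slc25a28, Slc25a36, Slc25a38, Slc25a44 and Slc25a51), with a median of 0.04. The 4 higher carriers were 10.5% of the 38, beside 4.97% of all genes, and the 6 lower 15.8%, beside 29.2%. Rescaling a library shifts all its genes by nearly the same log2 amount. The distance of the carrier medians from the median of all genes was therefore bound to stay similar and is no separate support. The number of lower carriers depended on the scaling.

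**Figure D2:**
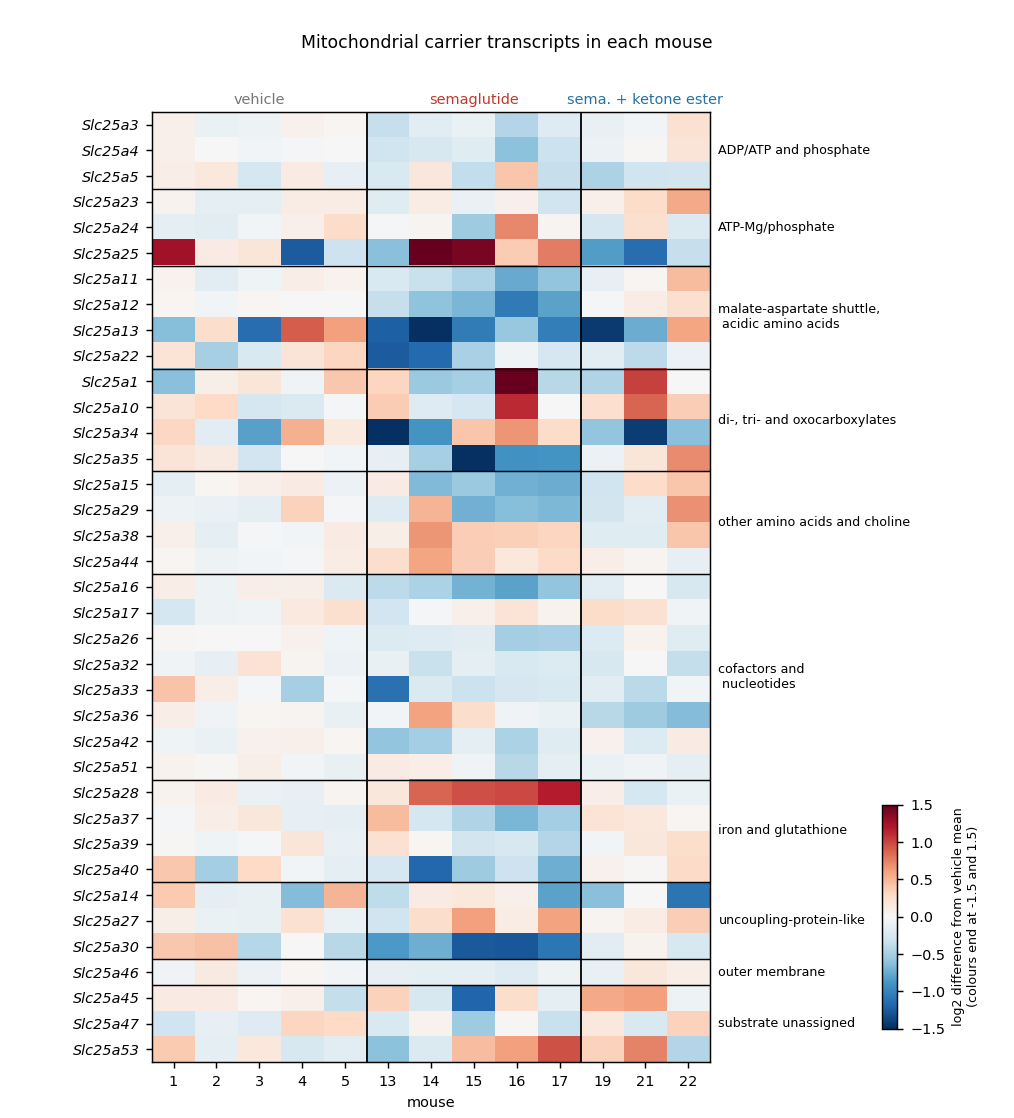
Log2 difference of each mouse from the vehicle mean for the tested carriers reported here (rows, ordered by what they transport) in the 13 mice (columns), red above and blue below the vehicle mean, with colours ending at -1.5 and 1.5. Slc25a12, Slc25a16 and Slc25a30 are blue and Slc25a28 and Slc25a44 red in every semaglutide-treated mouse, and mouse 13 is the palest of them in Slc25a12 and Slc25a28.

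The individual mice of 2 groups did not overlap for 10 of the 38 carriers between semaglutide and vehicle (26.3%, beside 14.7% of all genes tested), for 10 between semaglutide + ketone ester and semaglutide (26.3%, beside 20.1%) and for 2 between semaglutide + ketone ester and vehicle (5.26%, beside 11.3%). Those 2 were Slc25a5 and Slc25a36, both lower with the combination. By the study's thresholds of p under 0.05 in a 1-way analysis of variance and a 1.5-fold change, with the fold taken here between the lowest and the highest of the group means, 9 carriers (23.7%) were altered across the 3 groups, beside 16.1% of all genes. They were Slc25a11, Slc25a12, Slc25a15, Slc25a16, Slc25a28, Slc25a30, Slc25a35, Slc25a36 and Slc25a40. The abundant Slc25a4 was not among them because its highest mean was 1.29 times its lowest.

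The sequences upstream of 5 of the carriers described below are shown because these had the largest differences of the abundant shuttle (Slc25a12), iron (Slc25a28) and uncoupling-protein-like (Slc25a30) groups or hold a motif that was searched for (Slc25a15 and Slc25a36). Each is the 250 bases before an annotated transcript start in the RefSeq promoter table of GRCm38.p6, the same assembly as mm10, written 5′ to 3′ on the gene's strand, and capitals mark an E-box (CACGTG).
Slc25a12, chr2:71367756-71368005, minus strand: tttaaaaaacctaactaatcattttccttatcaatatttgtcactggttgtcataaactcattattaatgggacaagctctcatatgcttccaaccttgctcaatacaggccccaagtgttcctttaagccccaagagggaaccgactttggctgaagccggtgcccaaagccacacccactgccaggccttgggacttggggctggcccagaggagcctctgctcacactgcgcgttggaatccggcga
Slc25a28, chr19:43674882-43675131, minus strand: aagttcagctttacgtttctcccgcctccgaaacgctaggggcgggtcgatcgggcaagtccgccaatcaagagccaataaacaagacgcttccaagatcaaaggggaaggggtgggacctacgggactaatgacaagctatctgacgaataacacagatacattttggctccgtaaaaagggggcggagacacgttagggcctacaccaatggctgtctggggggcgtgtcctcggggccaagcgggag
Slc25a30, chr14:75787038-75787287, minus strand: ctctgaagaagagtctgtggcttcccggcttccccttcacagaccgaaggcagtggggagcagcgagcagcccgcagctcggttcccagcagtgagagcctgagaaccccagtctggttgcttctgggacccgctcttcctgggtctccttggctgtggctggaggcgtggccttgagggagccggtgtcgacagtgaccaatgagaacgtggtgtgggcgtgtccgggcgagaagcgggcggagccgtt
Slc25a15, chr8:22398278-22398527, minus strand: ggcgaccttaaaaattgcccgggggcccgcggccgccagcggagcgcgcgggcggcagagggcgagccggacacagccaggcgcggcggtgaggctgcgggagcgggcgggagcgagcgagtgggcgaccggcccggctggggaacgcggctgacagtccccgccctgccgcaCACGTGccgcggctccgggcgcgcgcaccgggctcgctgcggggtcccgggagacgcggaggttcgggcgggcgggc
Slc25a36, chr9:97111042-97111291, minus strand: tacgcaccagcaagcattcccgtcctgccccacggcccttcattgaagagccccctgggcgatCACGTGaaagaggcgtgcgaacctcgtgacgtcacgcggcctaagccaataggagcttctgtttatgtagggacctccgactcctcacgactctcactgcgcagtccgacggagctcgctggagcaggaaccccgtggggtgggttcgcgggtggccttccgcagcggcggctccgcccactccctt
Of the 46 carriers, 35 had a window in that table, and 10 of the 13 carriers past the threshold in either comparison did. Windows of 250 bases before to 50 after the start were searched on both strands for the E-box, for TCAAGGTCA (estrogen-related receptors), GCGCATGC (NRF1), CCGGAAGT (ETS factors such as GABPA) and TGATGCAA (C/EBP-ATF elements). The E-box stood in 8 of the 45 windows of carriers, beside 7.15% of all 32851 windows in the table. These belong to 7 carriers (Slc25a1, Slc25a13, Slc25a14, Slc25a15, Slc25a31, Slc25a33 and Slc25a36), and Slc25a14 holds it in overlapping windows. Of the 10 carriers past the threshold that had a window, 2 held it, Slc25a15 and Slc25a36. In the sequences shown it began 77 bases before the start of Slc25a15, where a second start further upstream had no match, and 187 bases before the start of Slc25a36. The NRF1 letters stood in Slc25a31 and Slc25a54, both below the filter in this muscle (2.71% of all windows), and the other 3 motifs in no carrier (0.423%, 3.89% and 0.895% of all windows for the estrogen-related receptor, ETS and C/EBP-ATF letters). A match is a run of letters in a window and does not show that a factor is bound.

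Slc25a4 (adenine nucleotide translocase 1, 1925 bases of exon at chr8:46206797-46211284 in mm10) exports ATP from the matrix in exchange for ADP. It stood at 58506, 55168, 54046, 54324 and 55958 normalized counts in vehicle-treated mice 1 to 5, at 45260, 46986, 48951, 36397 and 44499 in semaglutide-treated mice 13 to 17, and at 52368, 56154 and 63771 in semaglutide + ketone ester–treated mice 19, 21 and 22. All semaglutide-treated mice lay below all mice of both other groups. On the log2 scale the difference was -0.33 ± 0.09 (SE, adjusted p = 0.0205) for semaglutide against vehicle, 0.37 ± 0.10 (adjusted p = 0.0286) for the combination against semaglutide and 0.04 ± 0.10 (adjusted p = 0.942) for the combination against vehicle. The call against vehicle held with each mouse left out and was lost with equal totals and with quantile normalization, and that against semaglutide was lost without mouse 17, 21 or 22, without a filter, with equal totals and with quantile normalization. Since Slc25a4 makes up most of the family's reads, this modest fold was the largest change in absolute counts, from a mean of 55600 ± 1789 to 44419 ± 4801 (SD, n = 5 each).

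The phosphate carrier Slc25a3 showed the same order of means, 14035 ± 788 with vehicle, 11809 ± 1115 with semaglutide and 14318 ± 1788 with the combination, without passing the threshold (log2 difference -0.25, adjusted p = 0.0623, and 0.28, adjusted p = 0.0860) in limma, whereas DESeq2 called both differences. Its vehicle-treated mice (13133 to 14796) and semaglutide-treated mice (10318 to 13052) did not overlap. Slc25a5, the ADP/ATP carrier of proliferating and non-muscle cells, differed little between vehicle (443 ± 54.6) and semaglutide (430 ± 108), and was 346 ± 25.3 with the combination, where its 3 mice (317 to 364) lay below all vehicle-treated mice (366 to 492). Reads of Slc25a5 are less certain, because the annotation holds 2 pseudogenes with at least 95% identity to it. The testis ADP/ATP carrier Slc25a31 was below the filter.

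Within a mouse, the log2 ratio of Slc25a4 to Slc25a5 was 6.98 ± 0.17 with vehicle, 6.72 ± 0.48 with semaglutide and 7.37 ± 0.08 with the combination (SD). The combination exceeded vehicle by 0.39 (two-sided exact permutation p = 0.0357, Benjamini-Hochberg adjusted p = 0.129 over 12 tests of 4 ratios) and semaglutide by 0.65 (exact p = 0.0536, adjusted p = 0.129). None of the 12 tests passed after adjustment. The lowest p that can be reached is 0.0079 for 5 against 5 mice and 0.0179 for 3 against 5.

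The ATP-Mg carriers, of which those tested here are regulated by calcium, exchange ATP-Mg for phosphate and so set the adenine nucleotide pool of the matrix. None of the 3 tested members passed the threshold in the main limma test of any comparison. In the combination against semaglutide, edgeR, DESeq2 and limma with sample weights called Slc25a23 higher and Slc25a25 lower, and Slc25a25 also passed without mouse 13 (log2 difference -2.01, adjusted p = 0.0175) and with equal totals. Slc25a25 had the largest spread relative to its mean of the tested carriers in vehicle- and in semaglutide-treated mice, from 139.7 to 802 normalized counts with vehicle, from 216 to 1722 with semaglutide and from 151 to 263 with the combination, and its means of 391, 768 and 200 differed by 0.86 (adjusted p = 0.256) and -1.63 (adjusted p = 0.0807) on the log2 scale. Slc25a23 stood at 374 ± 32.6, 355 ± 42.8 and 465 ± 80.5, and Slc25a24 at 71.7 ± 9.34, 76.7 ± 25.5 and 68.5 ± 14.0 with vehicle, semaglutide and the combination. Slc25a41 was below the filter.

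Both carriers of the malate-aspartate shuttle that muscle uses most were lower with semaglutide. Slc25a12 (aralar, 6351 bases of exon at chr2:71271063-71367749), which exchanges matrix aspartate for cytosolic glutamate, stood at 8080, 7670, 8091, 7894 and 7860 normalized counts in vehicle-treated mice 1 to 5. In semaglutide-treated mice 13 to 17 it stood at 6215, 5218, 4919, 3790 and 4552, and in semaglutide + ketone ester–treated mice 19, 21 and 22 at 7735, 8579 and 9318. Every semaglutide-treated mouse was below every other mouse, while the combination and vehicle overlapped. In limma the log2 difference was -0.70 ± 0.11 (SE, adjusted p = 0.00169) for semaglutide against vehicle, 0.81 ± 0.13 (adjusted p = 0.00292) for the combination against semaglutide, and 0.11 ± 0.13 (adjusted p = 0.872) for the combination against vehicle. Both calls held with each mouse left out in turn and under all 10 other settings.

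Slc25a11 (chr11:70644196-70647479), which exchanges malate for 2-oxoglutarate, stood at 4403, 3801, 4046, 4546 and 4405 with vehicle, at 3617, 3363, 3070, 2508 and 2802 with semaglutide and at 3874, 4330 and 5866 with the combination. The semaglutide-treated mice again lay below all others. The log2 difference was -0.47 ± 0.13 (adjusted p = 0.0193) for semaglutide against vehicle and 0.60 ± 0.15 (adjusted p = 0.0170) for the combination against semaglutide. The latter was lost without mouse 22, and the former with equal totals.

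Slc25a22, a carrier of glutamate, was 442 ± 99.1 with vehicle, 292 ± 103 with semaglutide and 374 ± 40.8 with the combination (adjusted p = 0.0693 and 0.297), and DESeq2 and limma with a trend called it lower with semaglutide. Slc25a13 (citrin), the aspartate/glutamate carrier of liver, was scarce, at 17.1 ± 9.47, 6.45 ± 2.27 and 12.0 ± 9.51 normalized counts (adjusted p = 0.0767 and 0.427), and DESeq2 called it lower with semaglutide. All 4 tested members of this group were below 0 in semaglutide against vehicle and above 0 in the combination against semaglutide, with 2 of the 4 past the threshold each time. The shares of all genes were 13.2% lower with semaglutide and 9.09% higher in the combination against semaglutide. Slc25a18, the other glutamate carrier, was below the filter. The ratio of Slc25a12 to Slc25a13 had an SD of 0.67 to 0.90 (log2) within groups, and the lowest exact permutation p of its 3 comparisons was 0.304.

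Enzymes of this shuttle (Mdh1, Mdh2, Got1 and Got2), of the separate glycerol phosphate shuttle (Gpd1 and Gpd2) and creatine kinases (Ckmt2 and Ckm) were tested alongside. Of 8 (Mdh1, Mdh2, Got1, Got2, Gpd1, Gpd2, Ckmt2 and Ckm), 3 were lower with semaglutide, the cytosolic and mitochondrial malate dehydrogenases Mdh1 (log2 difference -0.76, adjusted p = 0.00286) and Mdh2 (-0.64, adjusted p = 0.000864), and the mitochondrial creatine kinase Ckmt2 (-1.66, adjusted p = 0.000591). The same 3 were higher in the combination than with semaglutide alone (0.79, 0.74 and 1.70), and 0 passed in the combination against vehicle. Over all genes tested, 13.2% were lower with semaglutide than with vehicle, and 9.09% were higher in the combination than with semaglutide. The aminotransferases Got1 (-0.31, adjusted p = 0.206) and Got2 (-0.16, adjusted p = 0.348) did not pass in semaglutide against vehicle.

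**Figure D3:**
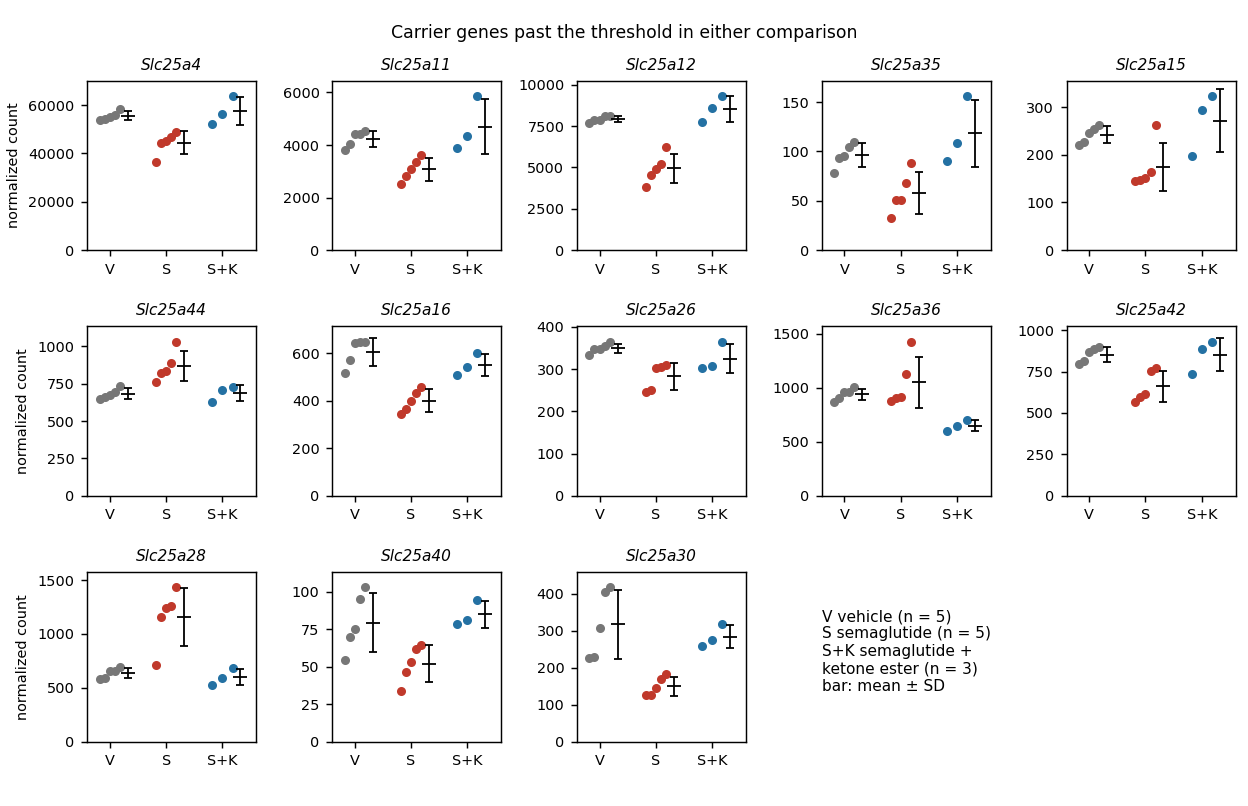
Normalized counts of the 13 carriers past the threshold in either comparison, with 1 point per mouse for vehicle (V, n = 5), semaglutide (S, n = 5) and semaglutide + ketone ester (S+K, n = 3), each with its mean ± SD, on axes that start at 0. In Slc25a4, Slc25a12 and Slc25a16 all semaglutide-treated mice lie below both other groups and in Slc25a44 above them, while in Slc25a15 and Slc25a28 semaglutide mouse 13 lies apart from the other 4 at 262 and 714.

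Of the 4 tested carriers of di-, tri- and oxocarboxylates, 1 passed, Slc25a35, beside 13.2% of all genes lower with semaglutide and 9.09% higher in the combination against semaglutide. Slc25a35 is related to the yeast oxaloacetate carrier, and its substrate in mouse is not settled. It stood at 109.9, 105, 78.0, 95.4 and 93.1 normalized counts with vehicle, at 88.0, 67.6, 32.2, 50.5 and 50.7 with semaglutide and at 89.9, 109 and 156 with the combination. Mouse 13 lay inside the vehicle range and the other semaglutide-treated mice below it. This gave a log2 difference of -0.79 ± 0.23 (adjusted p = 0.0282) against vehicle and 1.06 ± 0.27 (adjusted p = 0.0194) for the combination against semaglutide, the largest of any carrier past the threshold there. The first was lost when any 1 of 6 mice was left out. Its exons share 22.3% of their length with Rangrf on the opposite strand, and whether counting used the strand is not given in the sources used here.

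Slc25a1, the citrate carrier, and Slc25a10, the dicarboxylate carrier, both known from lipid-synthesizing tissue, did not pass. Slc25a1 was 35.5 to 73.4 with vehicle, 37.2 to 160.2 with semaglutide and 40.1 to 114 with the combination, and its highest value was that of semaglutide mouse 16. Slc25a10 was likewise highest in mouse 16, at 114 normalized counts, against 43.3 to 67.7 in the other semaglutide-treated mice. In that mouse the 6 adipocyte markers (Adipoq, Plin1, Cidec, Lep, Cfd and Ucp1, the last below the filter) summed to 10774 normalized counts, beside 141 to 1190 in the other semaglutide-treated mice, 560 to 2610 with vehicle and 1007 to 1998 with the combination, and the part of fat in these values was not tested. Slc25a34, a relative of Slc25a35, ranged from 30.9 in mouse 13 to 482 with semaglutide (log2 difference -0.56, adjusted p = 0.545, and 0.11 without that mouse), from 172 to 440 with vehicle and from 112 to 202 with the combination. Slc25a21, the oxodicarboxylate carrier, was below the filter.

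Among carriers of other amino acids, Slc25a44 and Slc25a15 went in opposite directions. Slc25a44 (chr3:88410498-88425139), which carries branched-chain amino acids into mitochondria, stood at 697, 649, 662, 675 and 736 normalized counts with vehicle, at 823, 1030, 885, 763 and 837 with semaglutide and at 730, 705 and 624.9 with the combination. All semaglutide-treated mice were above all others. On the log2 scale the difference was 0.34 ± 0.09 (adjusted p = 0.0177) against vehicle, a call kept with each mouse left out, and -0.33 ± 0.10 (adjusted p = 0.0421) for the combination against semaglutide, which was lost in 11 of 13 such fits.

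Slc25a15, the ornithine/citrulline carrier of the urea cycle, stood at 219.7, 246, 255, 263 and 227 with vehicle, at 262, 152, 163, 147 and 144 with semaglutide and at 197, 294 and 323 with the combination. Mouse 13 alone of the semaglutide-treated mice lay in the vehicle range, and the other 4 were below every mouse of both other groups. In limma the log2 difference was -0.51 ± 0.17 (adjusted p = 0.0489) and 0.65 ± 0.20 (adjusted p = 0.0427), and each call was lost in 11 of 13 fits with a mouse left out. Without mouse 13 the differences were -0.67 (adjusted p = 0.00232) and 0.81 (adjusted p = 0.00207).

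Slc25a38, the glycine carrier that supplies haem synthesis, was 186 ± 13.0 with vehicle, 241 ± 34.9 with semaglutide and 192 ± 48.2 with the combination (adjusted p = 0.0627 and 0.132). It was higher past the threshold with semaglutide in edgeR, in DESeq2, with equal totals and without mouse 13. Slc25a29, a carrier of basic amino acids, was 96.2 ± 14.6, 79.6 ± 33.3 and 106 ± 41.7. Slc25a2 and the choline carrier Slc25a48 were below the filter.

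Of 9 carriers of cofactors and nucleotides, 3 were lower with semaglutide and 0 higher, beside 13.2% and 11.9% of all genes tested. With so few genes this is not read as a result about the group. Slc25a16 (chr10:62920633-62946498), linked to coenzyme A transport, stood at 647, 574, 650, 643 and 518 normalized counts with vehicle, at 459, 435, 368, 345 and 400 with semaglutide and at 543, 602 and 511 with the combination. The semaglutide-treated mice lay below all others. The log2 difference was -0.60 ± 0.10 (adjusted p = 0.00202) against vehicle, kept with each mouse left out and under all 10 settings, and 0.46 ± 0.12 (adjusted p = 0.0192) for the combination against semaglutide, which was lost without mouse 21 and with equal totals.

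Slc25a42, the carrier of coenzyme A and adenosine 3′,5′-diphosphate, stood at 811, 797, 887, 899 and 867 with vehicle, at 564, 598, 773, 612 and 753 with semaglutide and at 888, 738 and 930 with the combination. Vehicle and semaglutide did not overlap, while mouse 21 of the combination lay inside the semaglutide range. This gave a log2 difference of -0.38 ± 0.11 (adjusted p = 0.0228) and 0.37 ± 0.12 (adjusted p = 0.0532). The first was lost with equal totals and without mouse 3, 4 or 14, and the second passed in edgeR, in DESeq2 and in 5 other fits.

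Slc25a26, which brings S-adenosylmethionine into the matrix, stood at 354, 347, 348, 365 and 334 with vehicle, at 304, 304, 310, 245 and 250 with semaglutide and at 302, 364 and 308 with the combination. It was lower with semaglutide than with vehicle with no overlap (log2 difference -0.31 ± 0.09, adjusted p = 0.0270), and the combination overlapped with semaglutide (0.20 ± 0.11, adjusted p = 0.197). The call against vehicle was lost in 6 of 13 fits with a mouse left out. Its exons share 7.23% of their length with Lrig1 on the opposite strand.

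Slc25a36, a carrier of pyrimidine nucleotides, followed another order. It stood at 1005, 903, 958, 964 and 872 with vehicle, at 910, 1426, 1130, 905.1 and 875 with semaglutide and at 701, 649 and 598 with the combination. The 3 mice of the combination lay below all 10 other mice, and vehicle and semaglutide overlapped. On the log2 scale the difference was 0.13 ± 0.13 (adjusted p = 0.475) for semaglutide against vehicle, -0.67 ± 0.15 (adjusted p = 0.0103) for the combination against semaglutide and -0.53 ± 0.15 (adjusted p = 0.192) for the combination against vehicle. The call against semaglutide was lost without mouse 22 (limma adjusted p = 0.0566) and held under all 10 other settings. The annotation holds 1 pseudogene with at least 95% identity to Slc25a36.

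Slc25a33, the other pyrimidine nucleotide carrier, was 205 ± 45.8, 153 ± 34.5 and 175 ± 21.4 with vehicle, semaglutide and the combination. The log2 ratio of Slc25a33 to Slc25a36 was -2.22 ± 0.33, -2.78 ± 0.41 and -1.89 ± 0.24 (SD), lower by 0.56 with semaglutide than with vehicle (exact permutation p = 0.0476) and higher by 0.89 with the combination than with semaglutide (exact p = 0.0357), each with an adjusted p of 0.129. Of other carriers of this group, Slc25a51 (NAD+) was 1365 ± 75.4, 1305 ± 186 and 1276 ± 41.3 and passed only with equal totals, as lower in the combination than with semaglutide. Slc25a32, a folate and FAD carrier, was 295 ± 29.0, 255 ± 14.6 and 257 ± 33.5, and Slc25a17, a peroxisomal carrier of coenzyme A, FAD and NAD+, was 140 ± 19.1, 140 ± 17.3 and 154 ± 18.3, with neither past the threshold.

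Of the iron carriers Slc25a28 and Slc25a37, only Slc25a28 passed the threshold in the main limma test. Slc25a28 (mitoferrin-2, 1535 bases of exon at chr19:43663801-43674881), the iron importer of non-erythroid cells, stood at 655, 691, 591, 582 and 652 normalized counts in vehicle-treated mice 1 to 5. In semaglutide-treated mice 13 to 17 it stood at 714, 1160, 1237, 1260 and 1432, and in semaglutide + ketone ester–treated mice 19, 21 and 22 at 679, 528 and 590. All semaglutide-treated mice were above all others, mouse 13 barely and the other 4 by a wide margin. In limma the log2 difference was 0.84 ± 0.16 (SE, adjusted p = 0.00382) for semaglutide against vehicle, -0.92 ± 0.19 (adjusted p = 0.00692) for the combination against semaglutide and -0.09 ± 0.19 (adjusted p = 0.932) for the combination against vehicle. Without mouse 13 the first 2 were 1.00 and -1.09, and both calls held with each mouse left out and under all 10 settings.

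Slc25a37 (mitoferrin-1), the importer of erythroid cells, did not pass, at 613 ± 56.1, 524 ± 189 and 671 ± 40.2 with vehicle, semaglutide and the combination. With semaglutide it was 852 in mouse 13 and 381 to 511 in the others. In limma without mouse 13, Slc25a37 passed as lower with semaglutide than with vehicle (log2 difference -0.47, adjusted p = 0.0036) and higher in the combination (0.61, adjusted p = 0.00227). It also passed with sample weights, which give mouse 13 the lowest weight. Since mouse 13 was singled out by values that include this one, neither fit is separate support. The log2 ratio of Slc25a37 to Slc25a28 was -0.05 ± 0.16 with vehicle, -1.17 ± 0.83 with semaglutide and 0.17 ± 0.17 with the combination (SD), with a difference of -1.12 for semaglutide against vehicle (exact permutation p = 0.0476, adjusted p = 0.129) and 1.34 for the combination against semaglutide (exact p = 0.0893, adjusted p = 0.179). The 5 erythroid markers (Hba-a1, Hba-a2, Hbb-bs, Hbb-bt and Alas2) summed to 3148 normalized counts in mouse 13 and to 50.5 to 1505 in the other semaglutide-treated mice, beside 1356 to 2291 with vehicle and 2849 to 5558 with the combination. Their part in the values of Slc25a37 was not tested.

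**Figure D4:**
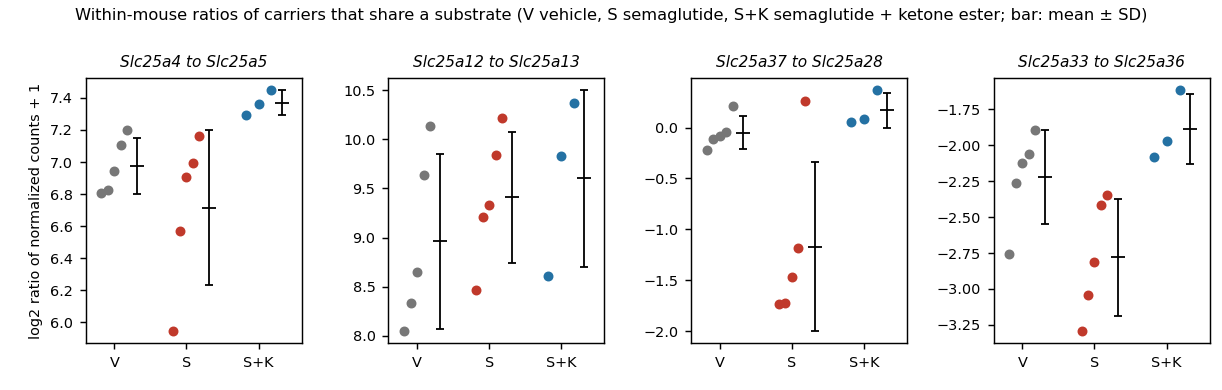
Log2 ratio of the normalized counts (each + 1) of 2 carriers with a shared substrate in each mouse, for vehicle (V, n = 5), semaglutide (S, n = 5) and semaglutide + ketone ester (S+K, n = 3), with mean ± SD. The ratio of Slc25a37 to Slc25a28 averages -0.05, -1.17 and 0.17 in these groups, with semaglutide mouse 13 apart from the others of its group.

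Of the glutathione carriers, Slc25a40 stood at 103, 54.2, 95.3, 75.4 and 69.9 normalized counts with vehicle, at 64.8, 33.8, 53.3, 62.1 and 46.2 with semaglutide and at 81.4, 78.5 and 94.9 with the combination. Vehicle and semaglutide overlapped, and the combination lay above every semaglutide-treated mouse. The log2 difference was -0.60 ± 0.20 (adjusted p = 0.0433) and 0.73 ± 0.23 (adjusted p = 0.0453), calls lost in 10 and 9 of 13 fits with a mouse left out, and 1 pseudogene has at least 95% identity to it. Its far more abundant relative Slc25a39 was 797 ± 62.9, 732 ± 138 and 876 ± 92.5 and did not pass (adjusted p = 0.439 and 0.198), except as higher in the combination than with semaglutide without mouse 13 (log2 difference 0.37, adjusted p = 0.0385) and with sample weights.

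Slc25a30 (kidney mitochondrial carrier protein 1, 3588 bases of exon at chr14:75760117-75787037), a relative of the uncoupling proteins, had the largest difference between semaglutide and vehicle of the carriers past the threshold. It stood at 405, 417, 226, 306 and 228 with vehicle, at 168, 184, 127, 126 and 144 with semaglutide and at 274, 318 and 260 with the combination. The semaglutide-treated mice lay below all others, and the combination lay within the vehicle range. This gave a log2 difference of -1.04 ± 0.19 (adjusted p = 0.00274) for semaglutide against vehicle, kept with each mouse left out and under all 10 settings, 0.93 ± 0.22 (adjusted p = 0.0136) for the combination against semaglutide, lost without mouse 21, and -0.11 ± 0.22 (adjusted p = 0.926) for the combination against vehicle.

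Slc25a27, also named uncoupling protein 4, was 180 ± 19.7, 220 ± 54.6 and 203 ± 25.7, and Slc25a14, also named brain mitochondrial carrier protein 1, was 27.9 ± 8.94, 24.5 ± 6.63 and 18.5 ± 7.40, with neither past the threshold. Without mouse 13 and with sample weights Slc25a27 passed as higher with semaglutide than with vehicle, the log2 difference moving from 0.26 to 0.40 (adjusted p = 0.0325) without that mouse. Slc25a46, a member that sits in the outer membrane and takes part in mitochondrial fusion and fission, was 970 ± 60.5, 882 ± 25.7 and 1008 ± 97.7 (adjusted p = 0.206 and 0.144). Of the members placed in no substrate group here, Slc25a47, which is known from liver, was 57.6 ± 11.9, 49.6 ± 8.37 and 61.2 ± 12.0, Slc25a45 was 24.3 ± 3.27, 22.4 ± 8.33 and 32.2 ± 8.16, and Slc25a53 was 20.1 ± 4.08, 25.6 ± 10.9 and 24.6 ± 9.73, none past the threshold, although Slc25a45 passed with sample weights as higher in the combination than with semaglutide. Slc25a43 and Slc25a54 were below the filter.

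**Figure D5:**
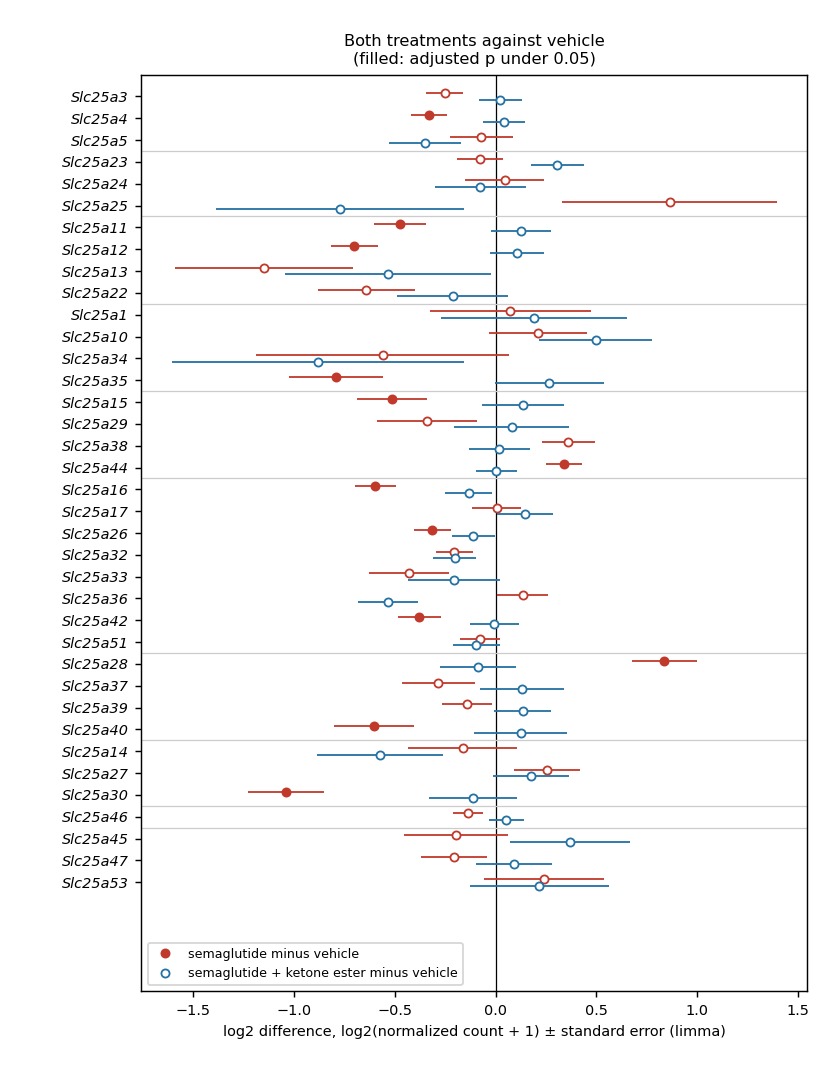
Log2 difference from vehicle on the log2(normalized count + 1) scale with its standard error from limma for the tested carriers reported here, red for semaglutide and blue for semaglutide + ketone ester, filled where the adjusted p was under 0.05. The 12 filled points are all of semaglutide, 10 left and 2 right of 0, and the blue points of the same 12 carriers lie between -0.13 and 0.27.

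Proteins that share the fold, the route or the task of the carriers were counted from separate lists. Of the carriers with other symbols (Ucp1, Ucp2, Ucp3, Mtch1 and Mtch2), 4 were tested and 0 passed in any comparison, although Ucp3, the uncoupling protein of muscle, stood at 5025 ± 587 with vehicle, 2389 ± 1615 with semaglutide and 2330 ± 748 with the combination (log2 difference -1.48, adjusted p = 0.0536, for semaglutide against vehicle, and -1.15, adjusted p = 0.549, for the combination against vehicle). Of 16 other transport proteins of mitochondria, 6 were lower with semaglutide and 1 higher, beside 13.2% and 11.9% of all genes. The lower ones were both subunits of the pyruvate carrier, Mpc1 (-0.59, adjusted p = 0.00260) and Mpc2 (-0.65, adjusted p = 0.00126), the outer membrane channels Vdac1 (-0.68, adjusted p = 0.000226) and Vdac3 (-0.27, adjusted p = 0.0275), and the ABC transporters Abcb8 (-0.61) and Abcb10 (-0.36), and the higher one was the sideroflexin Sfxn2 (0.60, adjusted p = 0.00728). In the combination against semaglutide 5 of these were higher, namely Mpc1, Mpc2, Vdac1, Abcb8 and Abcb10, beside 9.09% of all genes.

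Of 10 proteins that import carriers into the inner membrane, Timm22 (-0.58, adjusted p = 0.0296), the channel of the carrier translocase, and its partner Timm29 (-0.34, adjusted p = 0.0231) were lower with semaglutide and the outer membrane pore Tomm40 (0.36, adjusted p = 0.0173) higher, and the same 3 passed in the opposite direction in the combination against semaglutide. In this list 2 of 10 were lower and 1 higher with semaglutide, beside 13.2% and 11.9% of all genes, with a median of -0.05. In the combination against semaglutide 2 were higher and 1 lower, beside 9.09% and 9.3%. With so few genes these shares lie near those of all genes. For comparison, of 81 tested nuclear subunits of the respiratory chain and ATP synthase, 66 were lower and 0 higher with semaglutide, with a median of -0.46, and 71 were higher in the combination than with semaglutide, with a median of 0.57. Of 78 mitochondrial ribosomal proteins, 17 were lower and 2 higher with semaglutide (median -0.10). The carriers, with 10 of 38 lower and a median of -0.20, thus stood between these lists in median, a difference between lists that was not tested.

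Markers of other cell types were summed beside these results. The 5 fibroblast markers (Pdgfra, Dcn, Col1a1, Col3a1 and Lum) ranged from 5120 to 11723 normalized counts with vehicle, from 4625 to 6371 with semaglutide and from 6644 to 11019 with the combination. Of these, 4 of 5 were lower with semaglutide and 3 of 5 higher in the combination against semaglutide. Over all genes tested the shares were 13.2% and 9.09%. Of the 6 skeletal muscle markers, 3 were lower with semaglutide and 4 higher in the combination against semaglutide. The 5 slow-fibre markers (Myh7, Tnnt1, Tnni1, Myl2 and Atp2a2) ranged from 8043 to 32854 with vehicle, 7828 to 22129 with semaglutide and 11906 to 22714 with the combination, with 0 past the threshold. Of the macrophage and Schwann cell markers 0 passed, and of the 5 endothelial markers 2 and of the 5 erythroid markers 4 were higher in the combination against semaglutide. No marker of any list was at 0 in every mouse, and the part of cell composition in the carrier values was not tested.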

How the data were processed

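Gastrocnemius RNA of 13 mice was sequenced from stranded mRNA libraries. The deposited table holds 1 signal value per gene and mouse, counts normalized by the authors. The submitters' processing notes name DRAGEN, DESeq2 and mm10, while the gene counter, the annotation and the normalization step are not given in the sources used here. All values above 0 were whole multiples of what 1 read is worth in their column (tolerance 0.01), which gave the reads per mouse and the reads for edgeR and DESeq2. The main test was limma (version 3.58.1, R 4.3.3) on log2(normalized count + 1) over the 12303 genes with a mean of at least 10, with the 3 groups in 1 model and Benjamini-Hochberg adjustment over all genes (threshold 0.05). Fold changes on this scale understate those of low genes. Ratios were compared with two-sided exact permutation tests (scipy 1.17.1). Alternatives were pseudocounts of 5 and 0.1, no filter, a mean of at least 50, equal totals, quantile normalization, sample weights, edgeR 4.0.16, DESeq2 1.42.0 and each mouse left out, and limma with a mean-variance trend, which was chosen after seeing the data. The scripts were tested on simulated data. Exon lengths and overlaps came from GENCODE M21 (GRCm38). The carriers, their role groups and all lists were chosen with earlier results of these data known. Carriers past the threshold in either comparison with semaglutide-treated mice are given per mouse, other tested carriers by group. Of the tested carriers, 1 that is included in the counts is not reported here. The search of carrier proteins for the family's signature was not made. The labels give each sample as 1 mouse and 1 batch for all, and p-values measure the spread between these mice.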

Additional observations from a re-analysis of the deposited data

Results flagged for a closer look

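For each tested carrier the highest and the lowest mouse of the vehicle and the semaglutide groups were set against the rest of their group by Dixon's criterion, which chance alone meets in about 1 in 20 groups. Of the 76 groups, 6 (7.89%) held such a mouse. In semaglutide mouse 13, Slc25a15 was far above its group at 262.1 normalized counts, Slc25a37 was far above it at 852.0, and Slc25a33 far below it at 91.88. In semaglutide mouse 16, Slc25a1 was far above its group at 160.2 normalized counts. In vehicle mouse 4, Slc25a29 was far above its group at 122.0, and in vehicle mouse 5, Slc25a45 was far below it at 18.63. The erythroid markers of mouse 13 summed to 3148 normalized counts and the adipocyte markers of mouse 16 to 10774, each the highest of the semaglutide group, and their part in these values was not tested. The group of 3 semaglutide + ketone ester–treated mice was too small for the criterion.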

How the results depend on the processing

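The counts of carriers past the threshold kept within 1.5 times of 12 (semaglutide against vehicle) and 11 (semaglutide + ketone ester against semaglutide) under most settings, with exceptions. With equal totals, 6 carriers passed in semaglutide against vehicle, the median over the 38 was -0.032 there and 0.038 for the combination against semaglutide, and 4 carriers met the study's thresholds in place of 9. With quantile normalization the median for the combination against semaglutide was 0.19. Without a filter 7 carriers passed in the combination against semaglutide, where 789 of all genes were higher and 796 lower. With sample weights 17 carriers passed. Over all genes, sample weights gave 2060 higher and 2219 lower in that comparison, beside 1118 and 1144 in the main test. In the combination against vehicle, sample weights and DESeq2 each gave 1 carrier. A fold minimum of 1.2 in place of the study's 1.5 gave 16 carriers. For the fold minimum, for the 4 carriers with equal totals and for the single mice left out below, shares of all genes are not given here. Those counts are therefore not read as a result about the carriers. With single mice left out there were 7 to 16 carriers (median -0.25 to -0.20) for semaglutide against vehicle, 4 to 15 (median 0.21 to 0.34) for the combination against semaglutide, 0 to 0 (median -0.04 to 0.07) for the combination against vehicle and 6 to 10 by the study's thresholds. The ratio of Slc25a12 to Slc25a13 in the combination against semaglutide ranged from -0.19 to 0.69 with single mice left out and reversed to -0.05 without semaglutide mouse 16 and to -0.19 without mouse 19 of the combination, and Slc25a26 in the same comparison reversed to -0.034 with equal totals. Over single carriers past a threshold, 490 values under alternatives kept direction and side of the threshold, 100 no longer passed, 7 newly passed and 1 reversed. The cause was not tested. Slc25a12 and Slc25a28 passed in both comparisons under every setting and with each mouse left out. No paired analysis was possible because the groups share no mouse numbers in the labels. Carriers under 10 normalized counts were too shallow to compare.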
